A study of Mus musculus with 6 samples.

Results

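The epidermal growth factor family was examined in mouse cells transformed by NeuNDL, with and without the kinase SLK. The set holds 10 genes, chosen by symbol: the 4 ErbB receptor genes Egfr, Erbb2, Erbb3 and Erbb4 and the 6 ligand genes Areg, Ereg, Epgn, Hbegf, Tgfa and Nrg1. A probe set annotated to exactly 1 gene symbol was found for 9 of the 10, among 22180 genes tested in all, and Areg was not analysed here. RNA was measured on 6 one-colour arrays, 3 of SLK-knockout cells (knockout 1 to 3) and 3 of SLK wild-type cells (wild-type 1 to 3), and each value is a log2 signal. Both groups were untreated NeuNDL-derived cells grown in DMEM/F12 with fetal bovine serum and a mammary epithelial growth supplement. Supplements of this kind usually contain EGF, but the composition of this one was not stated in the labels. NeuNDL is an activated form of Neu, the rat ErbB2, known from mice that carry it under the mammary tumour virus promoter, so all 6 samples share an ErbB oncogene. The series names passages 9, 19 and 29, but no label ties a passage, clone or line to an array, nor says how SLK was removed. A p-value here thus reflects only the spread among these arrays, which may in part be technical.

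ErbB receptors are tyrosine kinases that act in pairs. An EGF-like ligand, released from the cell surface by metalloproteases, binds its receptor and brings 2 receptors together, and the phosphorylated tails then recruit adaptors that lead to the RAS-ERK and PI3K-AKT pathways. In the mammary gland the family drives duct growth and lobule formation, and ErbB2 is a classic oncogene of mammary tumours. Transforming growth factor alpha (Tgfa), amphiregulin (Areg) and epigen (Epgn) are ligands of EGFR, heparin-binding EGF (Hbegf) and epiregulin (Ereg) bind EGFR and ErbB4, and neuregulin 1 (Nrg1) binds ErbB3 and ErbB4. ErbB2 has no known ligand of its own, and ErbB3 has little kinase activity and signals through its partners.

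The targeted gene was checked first. Slk had a log2 signal of 7.14, 7.21 and 7.20 on the knockout arrays, against 8.21, 8.30 and 8.34 on the wild-type arrays, and fell 2.15-fold (limma, adjusted p = 0.0021). The knockout signal still lay above that of the median gene (4.39), and what this probe set reads in knockout cells was not tested. The arrays had medians of 3.93 to 3.97 and had Pearson's r of 0.990 to 0.994 with each other over all probe sets, and their number limits the precision of every value. Of the epithelial markers 11 were measured, and their mean log2 signal was 7.07 to 7.08 on the knockout arrays and 7.22 to 7.23 on the wild-type arrays. Krt14 and Cdh1, the genes of basal keratin 14 and of E-cadherin, fell among them (log2 fold changes of -0.66 and -0.43, limma adjusted p = 0.0096 and 0.022). The list had no common direction: 5 means were higher and 6 lower in knockout cells. The knockout and wild-type ranges were separated for 4 higher and 4 lower markers, against 8.79% and 8.1% of all genes. The separated falls were the larger ones, with Cldn7 and Epcam at -0.48 and -0.35 (not called). The separated rises were the luminal keratin genes Krt8 and Krt18 at 0.15 and 0.14, Cldn3 at 0.13 and Krt19 at 0.08. Krt19 was dim, at 3.54 to 3.61 on the knockout arrays and 3.48 to 3.53 on the wild-type arrays. Among 10 fibroblast markers Pdgfrb fell (-0.67, limma adjusted p = 0.0066), while the means of 5 were higher and of 5 lower. Ranges were separated for 3 higher and 4 lower ones, against 8.79% and 8.1% of all genes. Dcn, Postn and Pdgfra had 0.43, 0.37 and 0.10, and the collagen genes Col1a1, Col1a2 and Col3a1 had -0.33, -0.19 and -0.19. Among 7 adipocyte markers Fabp4 rose (0.92, adjusted p = 0.029), with 3 means higher and 4 lower, and among 5 Schwann cell markers Sox10 rose (1.47, adjusted p = 0.0093), with 2 higher and 3 lower. Leukocyte markers were dim: 8 of 10 lay below the median gene (4.39) on every array, with a mean of 3.62 to 3.85 on the knockout arrays and 3.54 to 3.68 on the wild-type arrays. Of the 8 endothelial markers 6 were that dim, with means of 3.56 to 3.65 on knockout and 3.57 to 3.64 on wild-type arrays. So were 6 of the 7 adipocyte markers, all but Fabp4. No leukocyte or endothelial marker was called, where 0.437% of all genes were. The leukocyte means were 8 higher and 2 lower in knockout cells, with ranges separated for 2 higher and 0 lower. Of the endothelial means 5 were higher and 3 lower, with ranges separated for 1 higher and 2 lower. Over all genes 8.79% had separated higher and 8.1% separated lower ranges. The part of these markers in the values below was not tested, and in bulk RNA fewer cells of a type and less RNA per cell cannot be told apart.

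None of the 9 measured genes passed an adjusted p of 0.05 in knockout against wild-type cells (limma over all genes), where 0.437% of all genes did. The shifts were small and went both ways: Egfr and Epgn had lower signals in knockout cells, and Ereg, Nrg1 and Tgfa had higher ones, each by 1.17-fold to 1.30-fold. These 5 had an unadjusted p under 0.05, as did 10.2% of all genes. The ranges of the knockout and wild-type arrays did not overlap for 6 of the 9, against 16.9% of all genes tested. The knockout range was the higher one for 4 of them (8.79% of all genes) and the lower one for 2 (8.1% of all genes). The median size of the log2 fold change was 0.22 over the 9 and 0.07 over all genes, while the median with its sign was 0.09 over the 9 and close to 0 over all genes (0.0038). These counts describe genes that were picked with earlier results of the same arrays known.

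**Figure D1:**
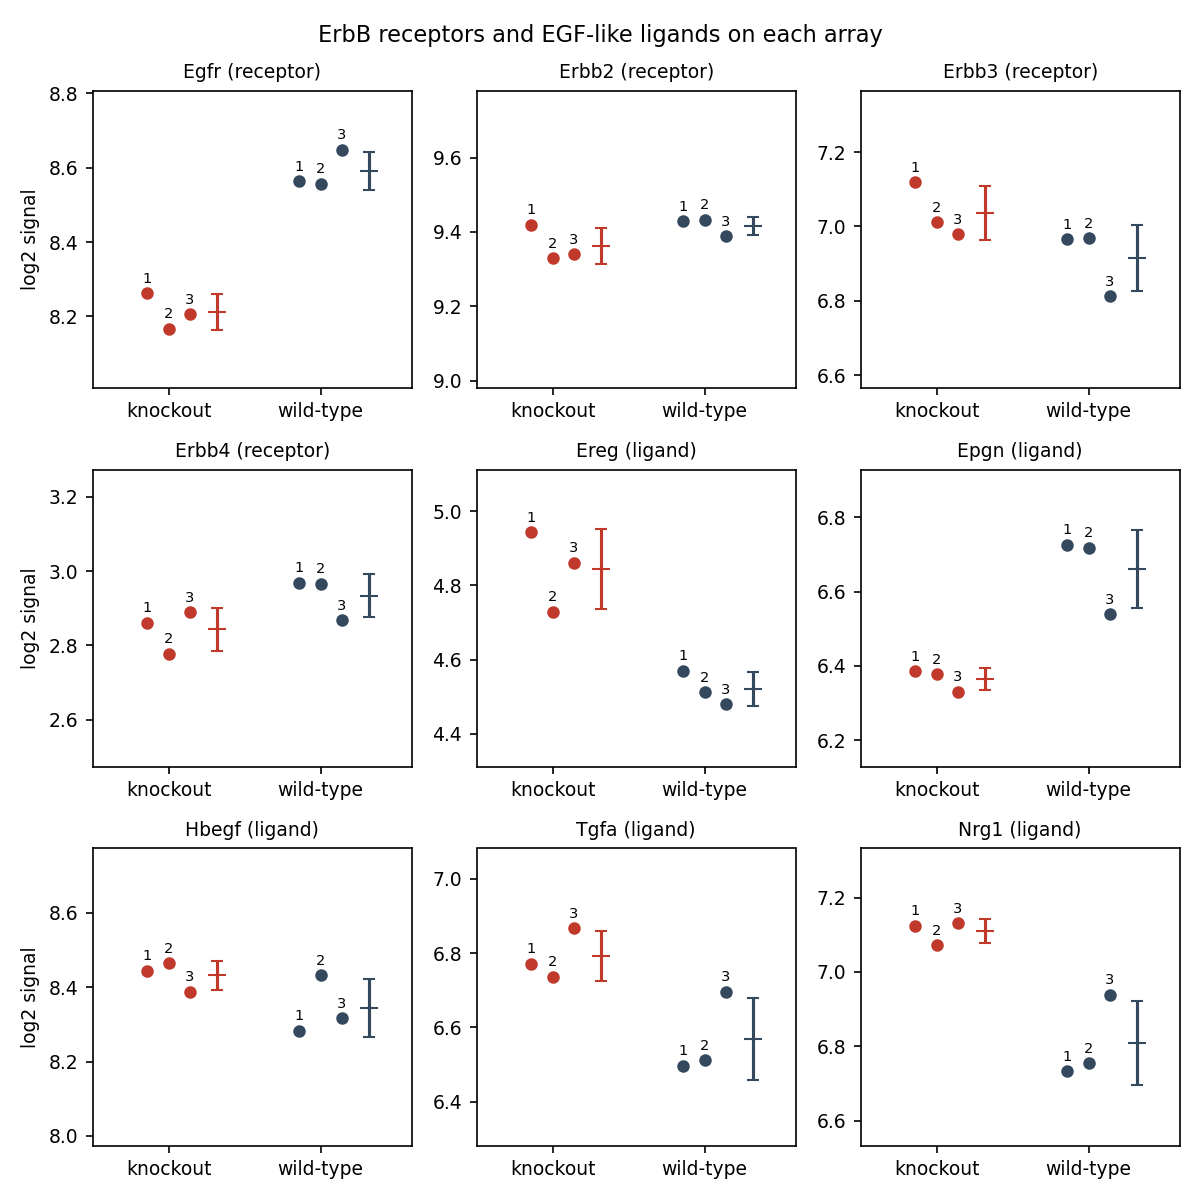
Log2 signal (y axis, each panel spanning 0.8 log2 units) of the 9 measured genes on the 3 knockout arrays (red) and the 3 wild-type arrays (dark blue), with array numbers beside the points and the mean ± SD of each group to their right. Egfr shows the widest gap between the groups, with 8.26 as the highest knockout value and 8.56 as the lowest wild-type value.

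Among the receptors, Egfr had the largest difference. Egfr encodes the EGF receptor itself, and its log2 signal was 8.26, 8.17 and 8.21 on knockout arrays 1 to 3, against 8.56, 8.56 and 8.65 on wild-type arrays 1 to 3. Every knockout array lay below every wild-type array, with a gap of 0.30 between the ranges and a within-group SD of 0.05 in both. The log2 fold change was -0.38 (SE 0.05, 95% interval -0.51 to -0.25), a 1.30-fold lower signal, with an adjusted p of 0.055 (limma). It ranked 116th of 22180 genes by p, and 1.89% of all genes had a larger log2 fold change in either direction. The signal stayed strong in both genotypes, between the 90.3rd and the 93.1st percentile of all probe sets.

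Egfr and, among the ligands, Epgn were the members whose knockout range lay wholly below the wild-type range, and for that their promoter windows are shown, each from 250 bases before to 50 bases after the annotated start, from RefSeq on GRCm38.p6. Capitals mark matches, on either strand, to the GC box GGGCGG, the AP-1 motif TGANTCA, the TATA motif TATAAA or CCAAT, none of which overlap each other here. The windows are chr11:16751953-16752252 on the plus strand for Egfr and chr5:91027267-91027566 on the plus strand for Epgn.
Egfr: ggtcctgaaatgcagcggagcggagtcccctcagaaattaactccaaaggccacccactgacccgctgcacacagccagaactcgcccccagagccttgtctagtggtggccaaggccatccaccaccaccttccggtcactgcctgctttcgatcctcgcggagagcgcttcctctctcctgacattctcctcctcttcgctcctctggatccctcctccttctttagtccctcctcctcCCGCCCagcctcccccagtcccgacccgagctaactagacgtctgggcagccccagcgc
Epgn: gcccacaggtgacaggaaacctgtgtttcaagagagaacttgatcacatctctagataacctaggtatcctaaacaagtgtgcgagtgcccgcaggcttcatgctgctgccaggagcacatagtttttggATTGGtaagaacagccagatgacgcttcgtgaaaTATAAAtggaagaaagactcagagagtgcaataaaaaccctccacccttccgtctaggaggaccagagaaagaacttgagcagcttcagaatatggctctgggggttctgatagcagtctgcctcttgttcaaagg
The Egfr window held 1 GC box, as 35.7% of the 32851 RefSeq windows of this length did, and no match to the other motifs. Its G and C content was 62.3%, above that of 76.2% of all windows. The Epgn window held 1 TATA motif, found in 13.6% of all windows, and 1 CCAAT match, found in 37.4%, and had a G and C content of 47.3%. Neither window had an AP-1 match, which 7.81% of all windows did. The Egfr and Epgn windows had none of the 4 motifs in common, and no binding was measured.

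Erbb2, the receptor gene whose activated rat form transformed these cells, had 9.42, 9.33 and 9.34 on the knockout arrays, against 9.43, 9.43 and 9.39 on the wild-type arrays. The ranges overlapped, and the log2 fold change of -0.05 had a 95% interval of -0.18 to 0.07 (adjusted p = 0.78, limma), which covers changes of up to 1.13-fold. No source used here says whether this probe set also reads the NeuNDL transcript, so transgene and mouse gene cannot be told apart. The signal was near the top of the array in both genotypes, at the 96.2nd to 96.5th percentile of all probe sets.

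Erbb3, the receptor of neuregulins that pairs with ErbB2, had 7.12, 7.01 and 6.98 on the knockout arrays, against 6.97, 6.97 and 6.81 on the wild-type arrays. All 3 knockout arrays were higher, but the ranges were only 0.01 apart and the log2 fold change of 0.12 (SE 0.07) had an adjusted p of 0.62 (limma). It was 0.07 without wild-type 3 and 0.08 without knockout 1. Erbb4, the other neuregulin receptor, was dim, at 2.86, 2.78 and 2.89 on the knockout arrays, against 2.97, 2.97 and 2.87 on the wild-type arrays. Those values lay between the 24.8th and the 29.2nd percentile of all probe sets. Its ranges overlapped and its log2 fold change was -0.09 (95% interval -0.23 to 0.05, adjusted p = 0.66, limma).

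The receptors' signals were also set against each other within each array, for pairs picked after their shifts were seen, so no test is given. Egfr minus Erbb2 was -1.15 ± 0.01 on the knockout arrays and -0.83 ± 0.08 on the wild-type arrays (SD, n = 3 each), a difference of -0.32. The groups did not overlap, but those of Egfr alone did not either, so this largely restates its shift. Egfr minus Erbb3 was 1.17 ± 0.05 on the knockout arrays and 1.67 ± 0.14 on the wild-type arrays (SD, n = 3 each), a difference of -0.50. These values describe the shift of one probe set relative to the other, not the level of one receptor relative to another.

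**Figure D2:**
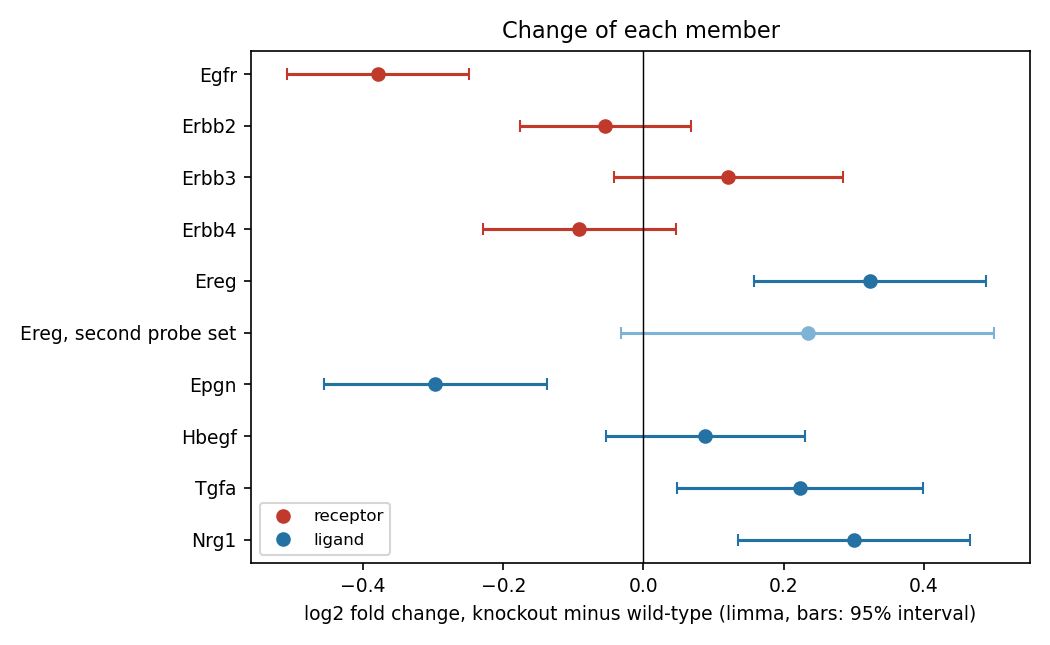
Log2 fold change of knockout minus wild-type (x axis) with its 95% interval from limma for each measured gene, receptors in red and ligands in blue, with the second Ereg probe set in pale blue. The intervals of Egfr and Epgn lie below 0, and those of Ereg (main probe set), Tgfa and Nrg1 above it, before any adjustment for the number of genes. That of the second Ereg probe set, from a fit of every probe set, crosses 0 (-0.03 to 0.50).

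Of the 5 ligand genes measured, 4 had a higher mean in knockout cells and Epgn had a lower one, and their median log2 fold change was 0.22. Ereg, which encodes epiregulin, a ligand of EGFR and ErbB4, had 4.94, 4.73 and 4.86 on the knockout arrays, against 4.57, 4.51 and 4.48 on the wild-type arrays. Every knockout array was higher, with a gap of 0.16, and the log2 fold change was 0.32 (SE 0.07, 95% interval 0.16 to 0.49, adjusted p = 0.16, limma). This signal was modest, at the 58.4th to the 64.3rd percentile of all probe sets. A second, dimmer Ereg probe set had 4.19, 4.47 and 4.19 on the knockout arrays, against 3.91, 4.07 and 4.16 on the wild-type arrays. Its groups did not overlap either, but only just, and its log2 fold change of 0.23 had a 95% interval of -0.03 to 0.50 in a fit of every probe set.

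Epgn, which encodes epigen, a low-affinity ligand of EGFR, had 6.39, 6.38 and 6.33 on the knockout arrays, against 6.73, 6.72 and 6.54 on the wild-type arrays. All knockout arrays were lower, and wild-type 3 was the wild-type array nearest to them. The log2 fold change was -0.30 (SE 0.07, 95% interval -0.46 to -0.14), a 1.23-fold lower signal (adjusted p = 0.18, limma).

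Nrg1, which encodes neuregulin 1, the ligand of ErbB3 and ErbB4, had 7.12, 7.07 and 7.13 on the knockout arrays, against 6.73, 6.75 and 6.94 on the wild-type arrays. All knockout arrays were higher and close together, while wild-type 3 again lay nearest to them. The log2 fold change was 0.30 (SE 0.07, 95% interval 0.14 to 0.47), 1.23-fold higher (adjusted p = 0.20, limma).

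Tgfa, the EGFR ligand transforming growth factor alpha, had 6.77, 6.74 and 6.87 on the knockout arrays, against 6.50, 6.51 and 6.70 on the wild-type arrays. The ranges were 0.04 apart, with wild-type 3 once more the nearest, and the log2 fold change was 0.22 (SE 0.07, 95% interval 0.05 to 0.40, adjusted p = 0.37, limma). Without wild-type 3 the log2 fold changes were -0.36 for Epgn, 0.37 for Nrg1 and 0.29 for Tgfa, with adjusted p of 0.16, 0.16 and 0.29 (limma). Wild-type 3 was at the far end of the wild-type range for Egfr and Ereg, so it did not sit nearer the knockout arrays for every gene of the family.

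Hbegf, which encodes heparin-binding EGF, had 8.44, 8.46 and 8.39 on the knockout arrays, against 8.28, 8.43 and 8.32 on the wild-type arrays. These ranges overlapped, and the log2 fold change of 0.09 (95% interval -0.05 to 0.23, adjusted p = 0.68, limma) covers differences of up to 1.17-fold. The signal of Hbegf was strong in both genotypes, at the 90.9th to the 92.1st percentile of all probe sets.

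Epgn, Ereg, Areg and the betacellulin gene Btc stand next to one another in this order on mouse chromosome 5 in the RefSeq annotation of GRCm38.p6, with no other protein-coding gene between them. The neighbours Epgn and Ereg had shifts of opposite sign. Ereg minus Epgn was -1.52 ± 0.11 on the knockout arrays and -2.14 ± 0.07 on the wild-type arrays (SD, n = 3 each), a difference of 0.62 that restates the 2 shifts and was not tested. Btc, a further ligand of EGFR and ErbB4, had a log2 fold change of -0.01 (95% interval -0.25 to 0.22). Of the 6 protein-coding genes on either side of these 4, 11 in all were measured and 10 had overlapping ranges, and their log2 fold changes lay between -0.24 and 0.13. Among them Mthfd2l, a mitochondrial folate enzyme gene directly before Epgn, had 0.0025. The exception was the chemokine gene Cxcl1, whose knockout arrays were higher by a mean of 0.09 (adjusted p = 0.65, limma).

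**Figure D3:**
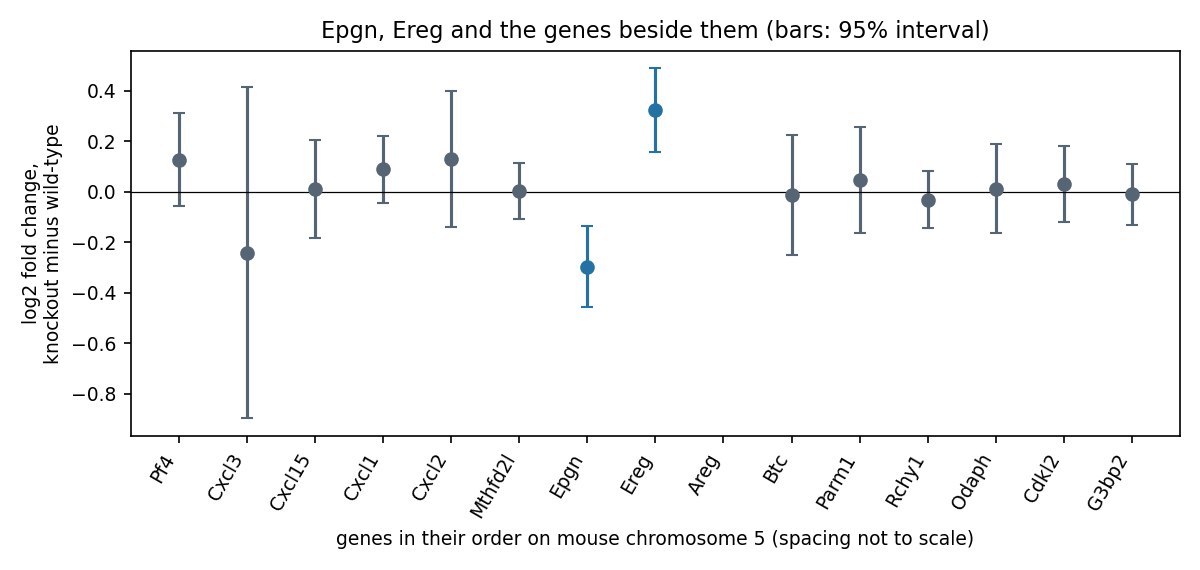
Log2 fold change of knockout minus wild-type (y axis) with its 95% interval from limma, for Epgn and Ereg (blue) and the protein-coding genes beside them (grey), in their order on mouse chromosome 5 and not to scale. Epgn (-0.30) and Ereg (0.32) lie on opposite sides of 0, and Areg has no value.

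The remaining genes of the pathway were compared as lists. The 5 other EGF-like ligand genes, Egf, Btc, Nrg2, Nrg3 and Nrg4, held no call, no unadjusted p under 0.05 and no separated ranges, with a median log2 fold change of -0.01. Over all genes these shares were 0.437%, 10.2% and 16.9%, so none among 5 genes is near them. Nrg4 had -0.13, Nrg2 -0.04 and Egf 0.07, with adjusted p of 0.70 to 0.91 (limma).

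Among 16 genes of ligand shedding and trafficking 2 rose and none fell, where 0.325% of all genes rose and 0.113% fell, and these were the only calls in the lists around the family. Ranges were separated for 7 of the 16, 5 higher and 2 lower, against 16.9% of all genes. Timp3, a secreted inhibitor of metalloproteases that blocks ADAM17, the main sheddase of several EGFR ligands, had 5.76, 5.96 and 5.92 on the knockout arrays, against 5.02, 4.91 and 5.002 on the wild-type arrays. It rose by 0.90 log2 units (SE 0.07), with an adjusted p of 0.0072 (limma). Nkd2, known to escort transforming growth factor alpha to the basolateral membrane and also an inhibitor of Wnt signalling, had 6.06, 6.25 and 6.10 on the knockout arrays, against 5.36, 5.21 and 5.04 on the wild-type arrays. It rose by 0.93 (SE 0.10, adjusted p = 0.022, limma). The groups were far apart for both genes. The call of Timp3 was lost without knockout 3 (adjusted p = 0.055) or wild-type 3 (0.054). That of Nkd2 was lost without any one array other than wild-type 1, with adjusted p up to 0.11 (limma). Adam8, a sheddase of the same list, had 0.19 (adjusted p = 0.25), and the list's median was 0.04. The mean log2 signal of the 16 genes was 7.52 to 7.54 on the knockout arrays and 7.39 to 7.40 on the wild-type arrays. That mean includes the rises of Timp3 and Nkd2, the 2 largest changes of the list.

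The 25 measured adaptors and proximal transducers held no call, and 17 of them had a lower mean in knockout cells (median log2 fold change -0.03). Of the 25, 2 had an unadjusted p under 0.05, near the share of 10.2% over all genes. Ranges were separated for 3 of the 25, against 16.9% of all genes. Pik3r1, the regulatory subunit of PI3-kinase, had -0.25 (adjusted p = 0.12), its relative Pik3r3 had 0.14 (adjusted p = 0.40), and Grb7, an adaptor of ErbB2, had -0.22 (adjusted p = 0.52, limma). Grb7 lay within overlapping ranges, at 4.95, 4.999 and 5.16 on the knockout arrays, against 5.41, 5.30 and 5.07 on the wild-type arrays. Of 26 genes of receptor inhibition and degradation none passed, and the median was -0.01. Of the 26, 1 had an unadjusted p under 0.05 (limma), against 10.2% of all genes. Ranges were separated for 9, 3 higher and 6 lower, against 8.79% and 8.1% of all genes. Lrig3, a transmembrane relative of the ErbB inhibitor LRIG1, had -0.25 (adjusted p = 0.17), the phosphatase gene Ptprg had -0.11 and Lrig1 itself 0.12 (adjusted p = 0.51 and 0.52, limma). Lrig3 and Lrig1 had separated ranges in opposite directions. Of 15 receptor partners none passed and 4 had separated ranges, against 16.9% of all genes. An unadjusted p under 0.05 (limma) was found for 1 of the 15, against 10.2% of all genes. Src, a kinase that acts with ErbB receptors, had the smallest p (log2 fold change 0.27, adjusted p = 0.13, limma). After it came Cdc37, a kinase co-chaperone, with 0.10, and Cav1, or caveolin 1, with -0.12.

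**Figure D4:**
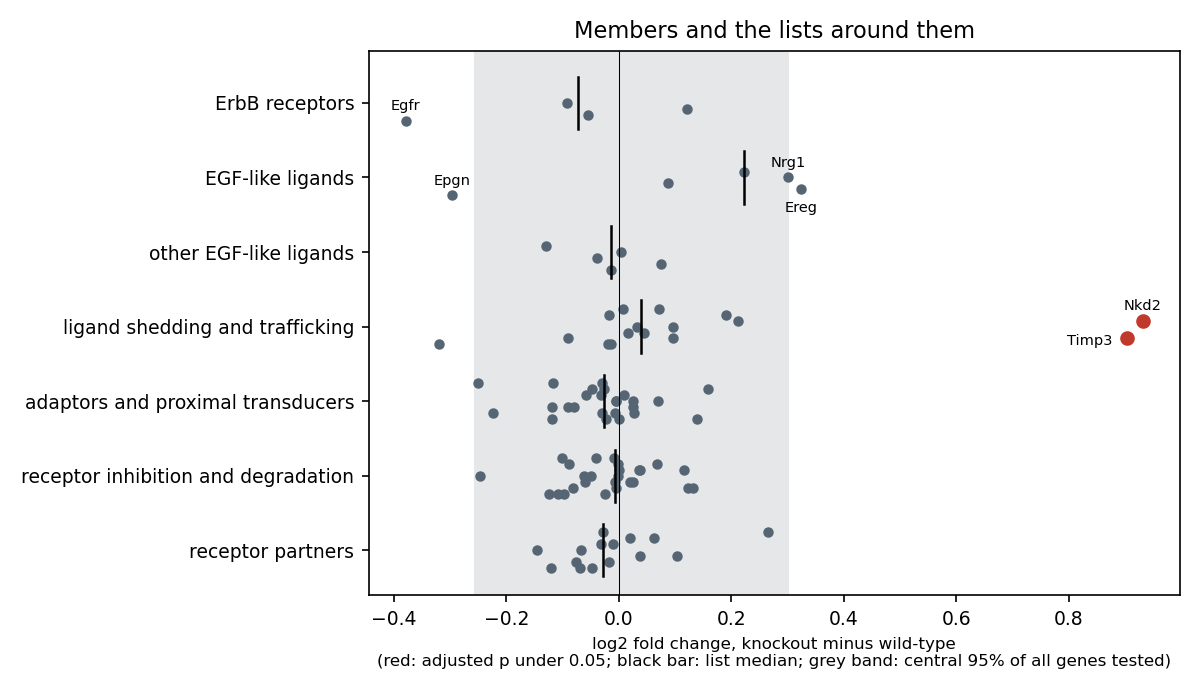
Log2 fold change of knockout minus wild-type (x axis) of every measured gene in the family and in the 5 lists around it, with red points for an adjusted p under 0.05, black bars for list medians and a grey band from -0.26 to 0.30 that holds the central 95% of all genes tested. Of the family, Egfr, Epgn and Ereg lie outside the band and Nrg1 (0.30) at its edge, and Timp3 and Nkd2 are the red points.

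The genes whose signals followed Egfr, Ereg and Epgn most closely were sought among 10387 genes with a mean above that of the median gene, leaving out uncharacterised, olfactory and small RNA symbols. Likeness was the root-mean-square difference between log2 values centred on each gene's mean over the 6 arrays. It thus favours genes with a like difference between the genotypes. For Egfr the nearest were Cd55, a complement regulator, at 0.03, then Ptgs2 (cyclooxygenase 2), Esrp2 (an epithelial splicing regulator), Mmp14 (a membrane-bound metalloprotease) and Ephb6 (an ephrin receptor), up to 0.05. Cd55 had 7.38, 7.35 and 7.34 on the knockout arrays, against 7.69, 7.67 and 7.76 on the wild-type arrays, and like Egfr it missed the threshold (log2 fold change -0.35, adjusted p = 0.054, limma). For Ereg the nearest were Col5a3, Hspb7, Katnal2, Zdhhc2 and Cdkn2a, at 0.03 to 0.04, with log2 fold changes of 0.27 to 0.36. For Epgn they were Proser2, Mcam, Cmtm8, Sertad4 and Il7, at 0.03 to 0.04, with log2 fold changes of -0.30 to -0.27. None of these 15 genes passed the threshold, which 0.437% of all genes did, but they were picked for likeness to members that had not passed it.

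Whether the family held a call depended on how the spread was estimated and on which genes were tested. Egfr had an adjusted p of 0.00051 when the prior spread followed signal intensity, 0.022 when the dimmest 30% of genes were left out and 0.0062 without the dimmest 50% (limma). The log2 fold change was -0.38 in each. With the intensity trend Nrg1 (adjusted p = 0.026) and Epgn (0.032) passed as well, and without the dimmest 50% so did Ereg (0.036), Epgn (0.041) and Nrg1 (0.047). Leaving out any one array gave Egfr log2 fold changes of -0.40 to -0.35 and adjusted p of 0.16 to 0.19. No member changed sign under the alternatives tried.

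**Figure D5:**
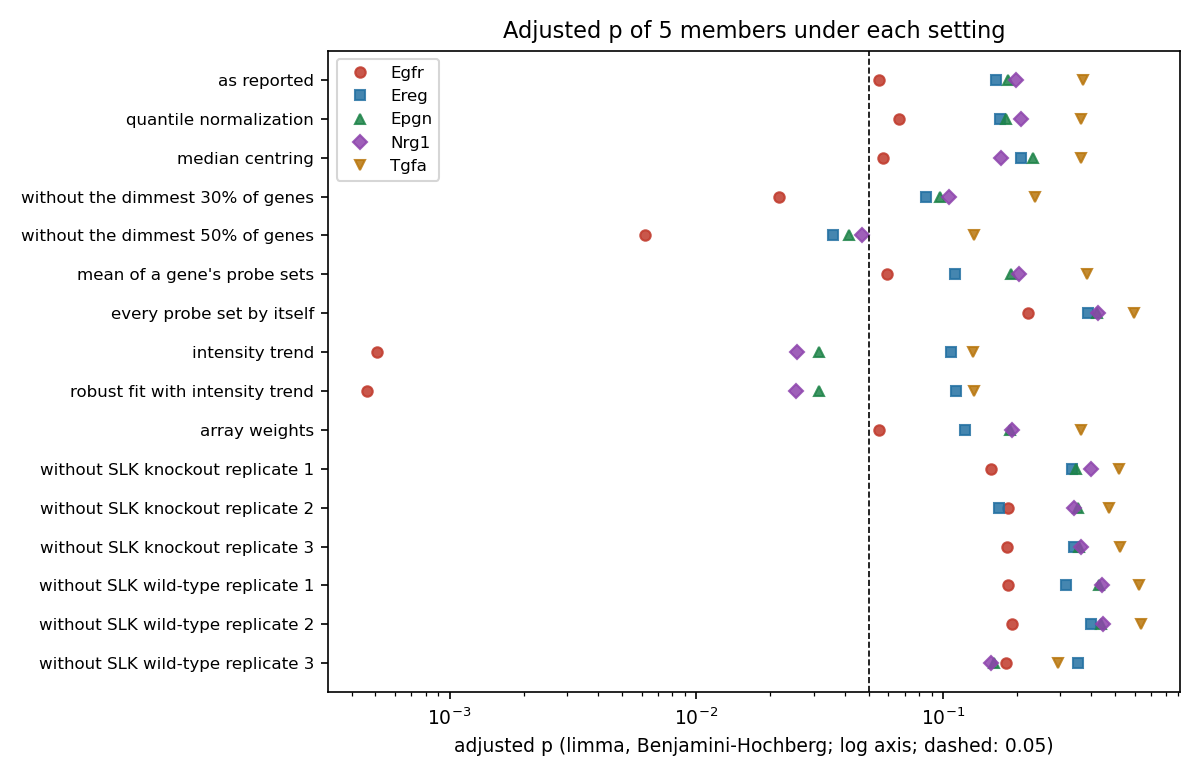
Adjusted p (x axis, log scale, dashed line at 0.05) of Egfr, Ereg, Epgn, Nrg1 and Tgfa under the reported setting and the alternatives, 1 line of points for each. The replicate block, where Egfr had 0.24, is not drawn. Egfr lies at 0.055 as reported, left of the line in 4 alternatives, and at 0.16 to 0.19 when an array is left out.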

How the data were processed

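The authors deposited a table of log2 values for 41345 probe sets on 6 arrays, made with Affymetrix Expression Console 1.4.1.46 per the submitters' processing notes. The labels give neither the background correction, normalization and summarisation nor the base of the logarithm. The highest value, 12.4, is too high for natural logarithms of a 16-bit scan, so log2 was assumed. Such values understate the changes of dim genes, and detection was not assessed.

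Gene symbols came from the annotation table of the platform: 23521 had 1 symbol, 1814 several and 16010 none listed. Per symbol the probe set with the highest mean over the 6 arrays was kept, giving 22180 genes, of which 21994 matched RefSeq (GRCm38.p6) by gene identifier. Groups and replicate numbers came from the sample titles. Knockout minus wild-type was tested with limma 3.58.1 in R 4.3.3 (lmFit, eBayes, no covariate, no filter), two-sided, with Benjamini-Hochberg adjustment over all genes at 0.05, and intervals are limma's 95%. The fit was tested on simulated data. Members and lists were chosen with earlier results of these data known. Named in the text are the members, Slk, the called and the 3 lowest-p genes of each pathway list, called markers, and the 5 genes most like each of the 3 lowest-p members. Btc, Mthfd2l, Cxcl1, Krt8, Krt18, Krt19, Cldn3, Cldn7, Epcam, Dcn, Postn, Pdgfra, Col1a1, Col1a2 and Col3a1 were added after their values were seen. The alternatives were 2 normalizations, 2 filters on dim genes, 2 treatments of several probe sets, 2 priors, array weights, a replicate block and leaving out each array. No array repeated another: the closest pair differed by an SD of 0.26.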

Additional observations from a re-analysis of the deposited data

How the results depend on the processing

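How many genes were called varied with the setting, for causes that were not tested. As reported, 72 genes rose and 25 fell, with 0 of the 9 family members called. The counts were 143 higher and 63 lower with 1 member without the dimmest 30% of genes, and 202 higher and 139 lower with 4 members without the dimmest 50%, where fewer genes were tested. With an intensity trend they were 265 and 176 with 3 members, and with the robust fit and trend 264 and 179 with 3 members. With every probe set by itself they were 25 and 4 with 0 members. Leaving out 1 array gave 13 to 24 higher and 2 to 5 lower genes, and 0 members each time. The other normalizations, mean probe sets and array weights gave 0 members, with Egfr at -0.38 to -0.37. Erbb4 was too dim to be tested in the filtered settings.

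Replicate numbers are shared by the groups, but nothing in the labels pairs them. Deviations of same-numbered arrays from their group means correlated at 0.04, 0.02 and -0.07, and not every array correlated best with its own number. With the replicate block 5 genes rose and 1 fell, with 0 members called and Egfr at an adjusted p of 0.24. Timp3 and Nkd2 had 0.11 and 0.14 with that block, and Nkd2 had 0.088 with every probe set tested by itself. All limits above are those of 3 arrays a group.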
